A study of Homo sapiens with 9 samples.

Results

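Chromatin accessibility was examined at 10 genes of the BCL2 family, which set the threshold for mitochondrial cell death: the anti-apoptotic genes BCL2, BCL2L1 and MCL1, and the pro-apoptotic genes BAK1, BCL2L11, PMAIP1, BID, BAD, BIK and HRK. Every region of the count table whose centre lay within the GRCh38 span of one of these genes, or within 50 kb of either end, was taken as a member. This gave 96 of the 148797 regions, 38 around the 3 anti-apoptotic genes and 58 around the 7 pro-apoptotic genes, and 80 of them passed the filter on low counts (31 and 49, respectively) among 119417 regions tested. Regions were picked by position and not by a measured value, while the choice of genes was made with earlier results of these data known.

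BCL2 family proteins meet on the outer mitochondrial membrane. The anti-apoptotic proteins hold the effectors BAK1 and BAX in check, and the BH3-only proteins, made or activated under stress, bind the anti-apoptotic proteins or the effectors, after which the membrane is permeabilized and cytochrome c leaves the mitochondrion. Neuroblastoma cells are known to depend on BCL2 or MCL1 to different degrees between lines.

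The libraries were ATAC-seq, in which the Tn5 transposase inserts adapters into open DNA, so a count reflects accessibility and not transcript level. All were made from SK-N-BE(2)c, an established human neuroblastoma cell line, 48 h after lipid transfection with 100 nM of an antisense oligonucleotide. ASO2 and ASO10 are directed at NESPR, a long non-coding RNA of adrenergic neuroblastoma cells, and NCA serves as the negative control. There were 3 libraries in each of the 3 groups; all groups were transfected, untransfected cells were not analysed here, and the labels do not say whether the libraries came from separate cultures, so p-values measure the spread between these libraries. The series title names cell death, and in bulk libraries a loss of some cells and a change in each cell cannot be told apart.

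Sequence before the transcription start is shown for 5 genes whose start regions are described below, to set BCL2 and BCL2L1 beside 3 BH3-only genes. The sequences are the 250 bases before the start, from RefSeq (GRCh38.p14), 5′ to 3′ on the gene's strand, with capitals for matches on either strand to the GC box GGGCGG, the CCAAT box (CCAAT), the TATA box TATAAA, the cAMP response core TGACG, the E-box CACGTG or the AP-1 site TGANTCA.
BCL2 (chr18:63319770-63320019, minus strand): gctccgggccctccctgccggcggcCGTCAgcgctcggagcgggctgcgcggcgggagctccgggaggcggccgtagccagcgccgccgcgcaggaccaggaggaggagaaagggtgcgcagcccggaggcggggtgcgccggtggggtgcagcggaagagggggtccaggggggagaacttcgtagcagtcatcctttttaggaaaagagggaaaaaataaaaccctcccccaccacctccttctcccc
BCL2L1 (chr20:31723964-31724213, minus strand): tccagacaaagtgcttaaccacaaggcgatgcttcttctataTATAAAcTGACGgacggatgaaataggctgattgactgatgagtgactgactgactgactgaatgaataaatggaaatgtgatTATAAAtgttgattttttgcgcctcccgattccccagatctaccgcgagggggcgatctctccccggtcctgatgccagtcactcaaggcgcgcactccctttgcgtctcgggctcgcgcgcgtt
BCL2L11 (chr2:111120664-111120913, plus strand): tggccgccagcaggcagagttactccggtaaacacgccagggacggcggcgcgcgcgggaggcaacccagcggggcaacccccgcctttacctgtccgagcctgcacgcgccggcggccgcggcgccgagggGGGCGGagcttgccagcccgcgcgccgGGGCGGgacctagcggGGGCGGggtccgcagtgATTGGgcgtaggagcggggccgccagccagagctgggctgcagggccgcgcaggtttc
PMAIP1 (chr18:59899746-59899995, plus strand): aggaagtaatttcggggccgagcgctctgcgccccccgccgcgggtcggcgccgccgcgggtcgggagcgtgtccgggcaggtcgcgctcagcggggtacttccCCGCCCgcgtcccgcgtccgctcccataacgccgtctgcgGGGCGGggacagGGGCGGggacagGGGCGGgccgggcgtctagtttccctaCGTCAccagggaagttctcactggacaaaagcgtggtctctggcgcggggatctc
HRK (chr12:116881442-116881691, minus strand): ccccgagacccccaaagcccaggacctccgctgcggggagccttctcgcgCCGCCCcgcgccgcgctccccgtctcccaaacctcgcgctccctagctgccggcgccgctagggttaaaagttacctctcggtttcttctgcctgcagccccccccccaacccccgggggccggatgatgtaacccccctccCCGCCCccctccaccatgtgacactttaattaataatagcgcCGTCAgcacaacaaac
The table held 14 start sites for 8 of the 10 genes (not MCL1 or BIK), and the motif counts that follow cover these 250 bases and the 50 after the start. BCL2 was the only 1 of the 8 without a GC box at any listed start, and BCL2L1 held 1 only at a start not printed here. The listed BCL2 start (63319769) lies within the gene span, which ends at 63320090. Sequence beyond that boundary was not scanned. GGGCGG occurred in 44.9% of 34796 distinct promoter windows of the same length. Shares of all windows are per window, while a gene was counted if any of its starts matched, so they are unlike units. BCL2L1 alone held TATAAA, present in 11.6% of all windows. TGACG was found at BCL2, BCL2L1, PMAIP1, BAD and HRK and in 24.5% of all windows, CCAAT at BCL2L11, BAK1 and BAD and in 34.6%, CACGTG at BID and in 7.2%, and TGANTCA at none of the 8 and in 7.73%. No match of 1 motif overlapped a match of another. Median GC content was 69.3% over the 14 windows and 58.7% over all windows. The accessible regions covered these windows fully at BCL2, BCL2L1, BCL2L11, PMAIP1, BAK1 and BAD, and 15.0% of the HRK window, whose region lay within the gene. At BID, coverage of the 5 windows was 60.3%, 100%, 0%, 51.7% and 100%.

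Total counts ran from 7293565 to 10948569 per library, and the member regions held 0.0715% to 0.0763% of the counts in NCA, 0.0679% to 0.0736% in ASO2 and 0.0803% to 0.0805% in ASO10. Of 8 adrenergic genes, 7 had a region at a gene end (TH had none), with summed levels of 158 to 171 counts per 1000000 (CPM) in NCA, 144 to 175 in ASO2 and 161 to 171 in ASO10. Of 8 genes of leukocytes, liver, keratinocytes, endothelium and muscle, 3 had such a region (PTPRC, APOA1 and PECAM1), with sums of 15.1 to 17.8, 14.2 to 16.4 and 12.9 to 16.7 CPM; CD3E, ALB, KRT5 and MYOD1 were among those with none. These levels overlapped between the groups.

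Few BCL2 family regions changed. A region was called at an adjusted p under 0.05 in edgeR's quasi-likelihood test over all tested regions. ASO2 lowered 2 of the 80 regions against NCA and raised none, 2.5% of the members where 5.6% of all regions were called. ASO10 raised 1 and lowered none (1.25%, where 1.09% of all regions were called). Compared directly, ASO2 was lower than ASO10 in 2 regions (2.5%, where 3.23% of all regions were called), and the mean of both oligonucleotides was higher than NCA in 1 (1.25%, where 2.99% were called). At an unadjusted p under 0.05 the counts were 11, 11, 12 and 13. The 4 comparisons share libraries, and each of these shares of calls lay below or near its background. All 3 libraries of ASO2 lay above all 3 of NCA in 5 member regions and below in 10 (18.8%, with 20.5% over all regions). The counts were 12 above and 8 below for ASO10 against NCA (25.0%, with 15.7% over all regions) and 4 above and 12 below for ASO2 against ASO10 (20%, with 19.3%).

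The median log2 fold change of the 80 regions was -0.085 for ASO2 against NCA (27 higher, 53 lower), 0.060 for ASO10 against NCA (45 higher, 35 lower) and -0.19 for ASO2 against ASO10 (21 higher, 59 lower). The corresponding medians over all tested regions were -0.024, -0.0067 and -0.0021. Member regions were more accessible than all tested regions, with a median of 4.64 against 2.63 CPM. At the 10446 tested regions at starts of protein-coding genes the medians were -0.043, 0.0997 and -0.155. There 24.5% were higher in ASO2 than in ASO10, beside 26.2% of the members. Of the 96 regions 28 lay within a member gene. At the end of another protein-coding gene, and not at an end of the member gene, lay 20 of the 96. Throughout, a gene end means either boundary of the gene's span, so it can be the transcription start.

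**Figure D1:**
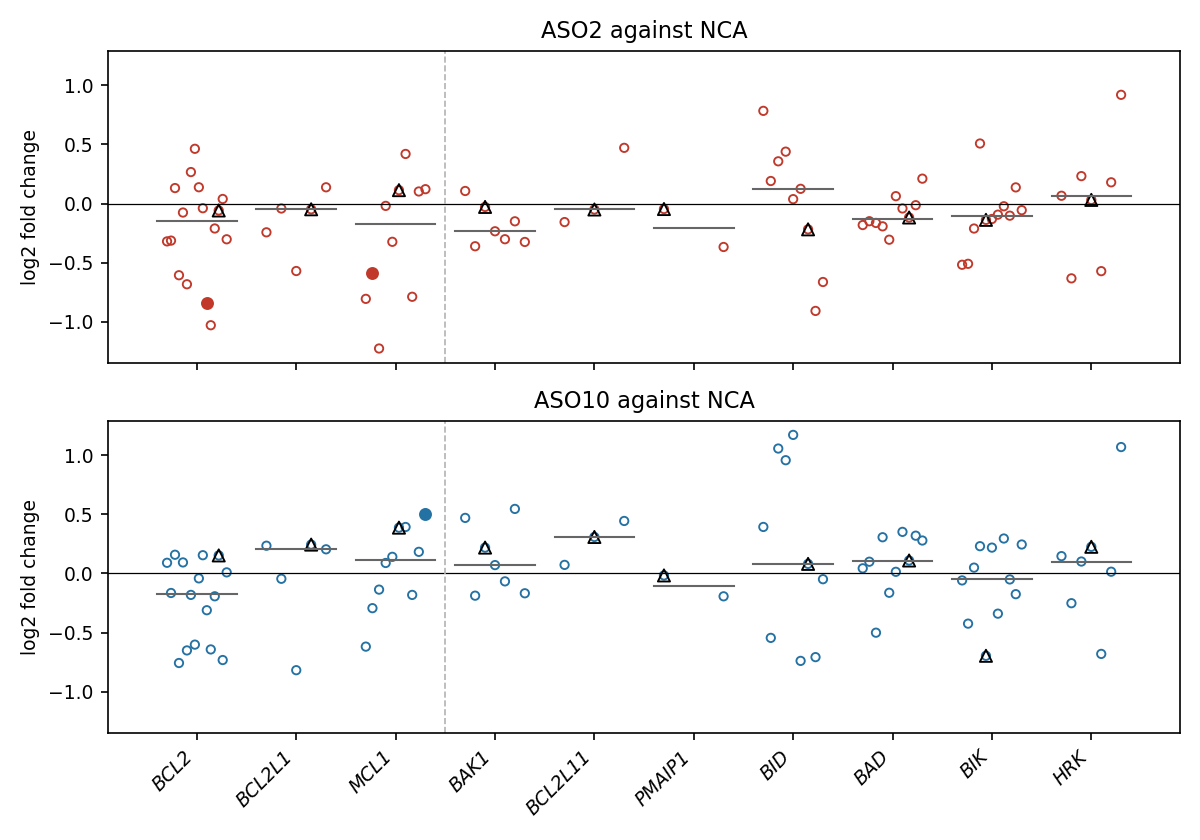
Log2 fold change of each of the 80 tested regions by gene (points; ASO2 against NCA in the upper panel, ASO10 against NCA in the lower), with filled points for an adjusted p under 0.05, triangles for gene-start regions and bars for gene medians. The dashed line separates anti-apoptotic (left) from pro-apoptotic genes; 2 points are filled for ASO2 and 1 for ASO10, all of them around BCL2 or MCL1.

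None of the 10 gene-start regions was called in any of the 4 comparisons by edgeR, DESeq2 or limma-voom. At an unadjusted p under 0.05 in edgeR there were 0 for ASO2 against NCA, 3 for ASO10 against NCA, 3 for ASO2 against ASO10 and 1 for both against NCA. A gene-start region is the region with the highest mean CPM among those overlapping or within 1 kb of the gene's start (of either gene end for MCL1 and BIK). On the log2 fold change scale their median was -0.05 for ASO2 against NCA and 0.19 for ASO10 against NCA, with 2 and 8 of 10 higher. Over all 10446 tested gene-start regions of protein-coding genes the medians were -0.04 and 0.10, with 41.1% and 66.2% higher, so higher values under ASO10 were found at most gene starts of the genome. Per kb of region, mean accessibility over the 9 libraries was highest at BCL2L1 (29.1 CPM per kb) and MCL1 (23.1), followed by BCL2L11 (15.4), BAK1 (15.1), PMAIP1 (13.2), BAD (10.8), BCL2 (9.47), HRK (8.74), BID (8.68) and BIK (3.78). BCL2L11 and BAK1, and likewise HRK and BID, were close to each other, and BIK stood at the lower end.

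**Figure D2:**
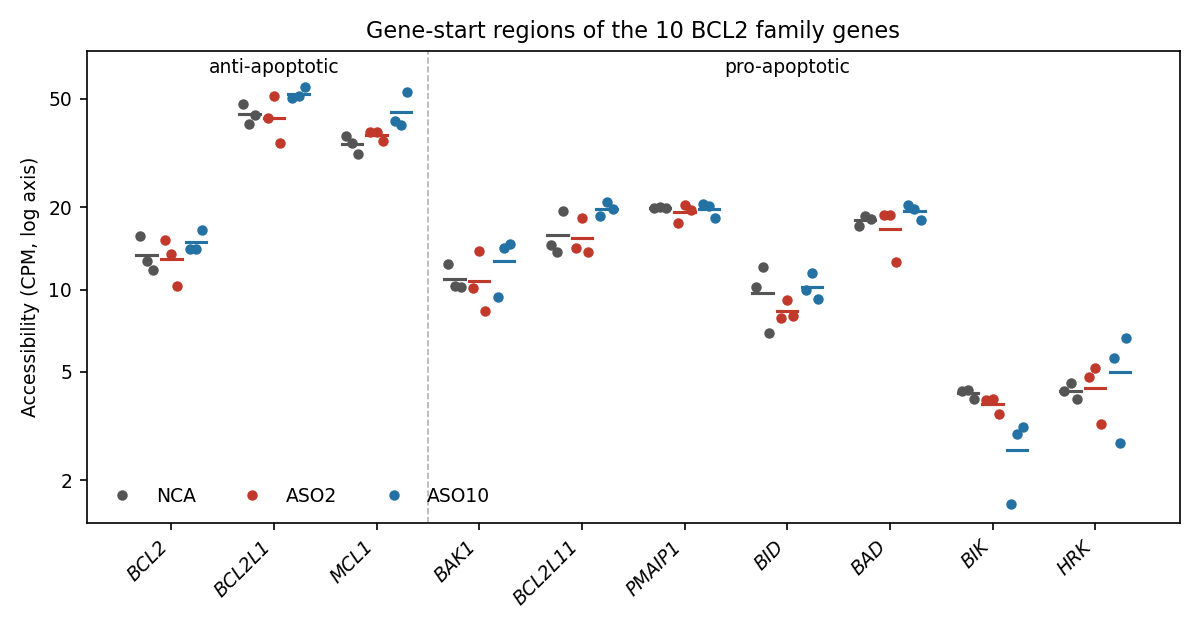
Accessibility of the gene-start region of each of the 10 genes in CPM (log axis); each point is a library and each bar the mean of 3 libraries of NCA, ASO2 or ASO10. The ASO10 libraries lie above all NCA libraries at BCL2L1 and MCL1 and below them at BIK, and the other 7 genes overlap between ASO10 and NCA.

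BCL2 encodes the founding anti-apoptotic protein of the family, the target of venetoclax. Its gene-start region (chr18:63319545-63320998) did not differ measurably between groups, while a region deep within the gene was less accessible under ASO2. At the start, NCA libraries had 15.7, 12.7 and 11.8 CPM, ASO2 libraries 15.2, 13.5 and 10.3, and ASO10 libraries 14.1, 14.1 and 16.5. The groups overlapped, and the log2 fold changes were -0.06 ± 0.17 (SE) for ASO2 and 0.15 ± 0.17 for ASO10 (adjusted p = 0.913 and 0.815, edgeR).

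The region that fell, chr18:63271972-63273569, lies within BCL2 and 46.2 kb downstream of its start. NCA libraries had 6.96, 11.6 and 11.2 CPM, ASO2 libraries 6.74, 5.26 and 4.86, and ASO10 libraries 6.69, 6.71 and 10.8. Every ASO2 library lay below every NCA library, the closest pair being 6.74 and 6.96 CPM, and the ASO10 libraries spanned the gap. The log2 fold change was -0.84 ± 0.23 (SE) for ASO2 (adjusted p = 0.00735, edgeR) and -0.31 ± 0.22 for ASO10 (adjusted p = 0.665); the oligonucleotides did not differ by the direct test (-0.53 ± 0.23, adjusted p = 0.232). The ASO2 call was lost with DESeq2 (adjusted p = 0.0589) and on leaving out NCA replicate 2 (0.0959), NCA replicate 3 (0.0841), ASO2 replicate 2 (0.0512) or ASO2 replicate 3 (0.0728).

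BCL2 had 19 member regions in all, 16 of them tested, and the rest were not called in any comparison. Under ASO2 11 of the 16 were lower than in NCA and 5 higher, with a median log2 fold change of -0.14; under ASO10 10 were lower and 6 higher (median -0.17). The most accessible, chr18:63366463-63368068, lies at the end of the neighbouring gene KDSR, which encodes an enzyme of sphingolipid synthesis. It had 26.0, 29.6 and 30.1 CPM in NCA, 23.6, 24.3 and 21.8 in ASO2, and 29.6, 25.3 and 31.6 in ASO10. The ASO2 libraries lay below all others there, but the difference from NCA did not pass the test (log2 fold change -0.30 ± 0.14 (SE), adjusted p = 0.209, edgeR).

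**Figure D3:**
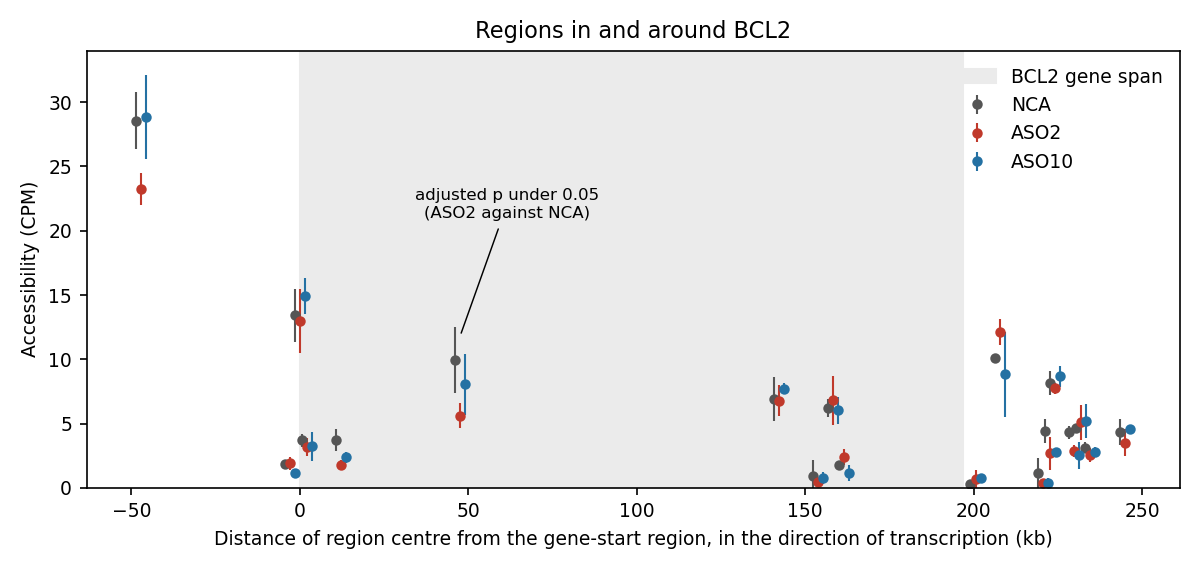
Mean accessibility (CPM, points; error bars are the SD of 3 libraries) of the 19 regions in and around BCL2, by distance in kb of the region centre from the gene-start region in the direction of transcription; groups are shifted sideways for legibility and the shaded band is the gene. The region 46.2 kb into the gene has means of 9.93 CPM in NCA, 5.62 in ASO2 and 8.07 in ASO10.

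BCL2L1 encodes BCL-XL, an anti-apoptotic protein. The region at its start (chr20:31722656-31724246) was the most accessible of its 8 member regions and ranked at percentile 93.9 of all gene-start regions by mean CPM. It had 47.9, 40.6 and 43.7 CPM in NCA, 42.7, 51.1 and 34.3 in ASO2, and 50.3, 51.2 and 55.1 in ASO10. All ASO10 libraries were above all NCA libraries and the ASO2 libraries were spread widely, with 1 of them inside the ASO10 range. Log2 fold changes against NCA were 0.24 ± 0.12 (SE) for ASO10 and -0.05 ± 0.12 for ASO2 (adjusted p = 0.423 and 0.89, edgeR). For ASO2 against ASO10 the value was -0.29 ± 0.12 (adjusted p = 0.166), and only without ASO2 replicate 2 did that difference pass the test (-0.45, adjusted p = 0.0279). None of the 5 BCL2L1 regions tested was called.

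MCL1 encodes a short-lived anti-apoptotic protein whose transcript responds quickly to stress and growth signals. ASO10 libraries had the higher accessibility at the region at MCL1 (chr1:150578633-150580304), but the difference did not pass the test. NCA libraries had 36.5, 34.5 and 31.4 CPM, ASO2 libraries 37.9, 37.9 and 35.0, and ASO10 libraries 41.4, 39.9 and 52.7. Every ASO10 library lay above every other library, 1 of them by a wide margin. The log2 fold change was 0.39 ± 0.12 (SE) for ASO10 (adjusted p = 0.092, edgeR) and 0.11 ± 0.12 for ASO2 (adjusted p = 0.713), and -0.27 ± 0.12 for ASO2 against ASO10 (adjusted p = 0.237). With a filter of at least 10 counts in every library the ASO10 difference was called (0.36, adjusted p = 0.0417), and without ASO10 replicate 3 it was 0.25 (adjusted p = 0.654).

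The MCL1 window held 2 of the 4 called regions, both at ends of neighbouring genes. Whether these ends are transcription starts was not analysed here. The most accessible of all 96 member regions, chr1:150628992-150630023 at the end of ENSA, a gene for a phosphatase inhibitor that acts in mitosis, rose under ASO10. It had 67.2, 53.1 and 61.0 CPM in NCA, 55.4, 77.2 and 64.2 in ASO2, and 87.9, 81.1 and 88.7 in ASO10. The ASO10 libraries lay above all others, and ASO2 and NCA overlapped. On the log2 scale the fold change was 0.51 ± 0.11 (SE) for ASO10 (adjusted p = 0.00136, edgeR), 0.12 ± 0.11 for ASO2 (adjusted p = 0.633) and -0.39 ± 0.11 for ASO2 against ASO10 (adjusted p = 0.0154); the mean of both oligonucleotides was also called against NCA (0.31 ± 0.09, adjusted p = 0.0344).

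The ENSA region lies 49.9 kb from MCL1, just within the 50 kb limit, and the next region outside lies at 56.0 kb, with 7.15 CPM. Its ASO10 call was lost without NCA replicate 2 (0.42, adjusted p = 0.0718). The direct difference from ASO2 was lost with loess offsets (-0.18, adjusted p = 0.356) and without ASO2 replicate 1 (-0.28, 0.308) or 3 (0.0525), or ASO10 replicate 1 (0.108) or 3 (0.13). The call for both oligonucleotides was lost with DESeq2 (adjusted p = 0.068), loess offsets (0.0587), no filter (0.0529) or a replicate block (0.0711), and without NCA replicate 2 (0.382) or 3 (0.125), ASO2 replicate 2 (0.155), or ASO10 replicate 1 (0.0917) or 3 (0.115).

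The other called region near MCL1, chr1:150548619-150549847, lies at the end of ADAMTSL4, which encodes an extracellular matrix protein, and fell under ASO2. It had 18.6, 14.8 and 14.8 CPM in NCA, 13.1, 10.2 and 8.99 in ASO2, and 11.0, 14.2 and 13.9 in ASO10. Libraries of both oligonucleotides lay below all NCA libraries. Against NCA the log2 fold change was -0.59 ± 0.17 (SE) for ASO2 (adjusted p = 0.0184, edgeR) and -0.29 ± 0.17 for ASO10 (adjusted p = 0.567), with no difference called between them (-0.30, adjusted p = 0.449). The ASO2 call was lost with DESeq2 (adjusted p = 0.0706) and without NCA replicate 1 (0.199), ASO2 replicate 2 (0.0889) or ASO2 replicate 3 (0.169).

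BAK1 encodes the effector that forms pores in the outer mitochondrial membrane. Its gene-start region (chr6:33579826-33580589) overlapped between the groups, with 12.4, 10.3 and 10.2 CPM in NCA, 10.1, 13.8 and 8.35 in ASO2, and 9.38, 14.2 and 14.7 in ASO10. The log2 fold changes were -0.03 ± 0.19 (SE) for ASO2 and 0.22 ± 0.19 for ASO10 (adjusted p = 0.965 and 0.737, edgeR). All 7 tested BAK1 regions were lower in ASO2 than in ASO10, with a median log2 fold change of -0.25, and none was called. Over all regions tested 49.8% were higher in ASO2 than in ASO10, and over all gene-start regions 24.5%.

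Among the BH3-only genes, BCL2L11 encodes BIM, which can bind all the anti-apoptotic proteins and activate the effectors. At its start region (chr2:111120348-111121449), NCA libraries had 14.6, 13.7 and 19.4 CPM, ASO2 libraries 14.2, 18.2 and 13.8, and ASO10 libraries 18.5, 20.9 and 19.8. ASO10 lay above all ASO2 libraries and overlapped NCA in 1 library. Neither the difference from NCA (log2 fold change 0.31 ± 0.16 (SE), adjusted p = 0.471, edgeR) nor that between the oligonucleotides (-0.36 ± 0.16, adjusted p = 0.227) passed the test.

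PMAIP1 encodes NOXA, a p53 and stress-response target that binds MCL1. Its start region (chr18:59899583-59901062) was even across the libraries: NCA libraries had 19.8, 20.05 and 19.9 CPM, ASO2 libraries 17.5, 20.5 and 19.6, and ASO10 libraries 20.5, 20.3 and 18.2. The log2 fold changes were -0.05 ± 0.15 (SE) for ASO2 and -0.02 ± 0.15 for ASO10 (adjusted p = 0.922 and 0.984, edgeR). HRK encodes a BH3-only protein of neurons. Its start region (chr12:116880917-116881436) had 4.25, 4.54 and 3.97 CPM in NCA, 4.77, 5.15 and 3.21 in ASO2, and 5.63, 2.73 and 6.64 in ASO10, where the ASO10 libraries lay on both sides of all the others. Here too neither difference from NCA passed the test (0.03 ± 0.31 and 0.23 ± 0.30, adjusted p = 0.977 and 0.852). The most accessible region around HRK, chr12:116818288-116819778 in RNFT2, had log2 fold changes of 0.07 and 0.15.

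BID encodes the protein that links death receptors to mitochondria after cleavage by caspase-8. Its start region (chr22:17773514-17774600) had 10.2, 12.1 and 6.92 CPM in NCA, 7.86, 9.12 and 7.98 in ASO2, and 9.97, 11.5 and 9.25 in ASO10, and the NCA libraries spanned both other groups. BIK encodes a BH3-only protein of the endoplasmic reticulum. The region at BIK (chr22:43109915-43110843) was the least accessible start region, with 4.25, 4.29 and 3.97 CPM in NCA, 3.93, 3.97 and 3.49 in ASO2, and 1.64, 2.96 and 3.13 in ASO10. ASO10 lay below all other libraries there, the reverse of its position at MCL1, but with these low counts the log2 fold change of -0.70 ± 0.36 (SE) did not pass the test (adjusted p = 0.486, edgeR). For BID the values were -0.22 ± 0.21 for ASO2 and 0.08 ± 0.20 for ASO10 (adjusted p = 0.659 and 0.93). At the most accessible region around BIK, chr22:43151423-43152858 at TSPO, the log2 fold changes were -0.10 and -0.05.

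BAD encodes a BH3-only protein controlled by growth factor signalling through phosphorylation. Its start region (chr11:64284279-64285955) overlaps GPR137, and had 17.1, 18.7 and 18.2 CPM in NCA, 18.8, 18.8 and 12.6 in ASO2, and 20.4, 19.8 and 18.0 in ASO10. The groups overlapped, with log2 fold changes of -0.12 ± 0.16 (SE) and 0.11 ± 0.15 (adjusted p = 0.772 and 0.859, edgeR). BAD lies in a gene-dense stretch, and 8 of its 11 regions were at ends of other protein-coding genes and not at an end of BAD. The only called region around a pro-apoptotic gene was 1 of these, chr11:64240749-64241974 at FKBP2, a gene for a prolyl isomerase of the endoplasmic reticulum, with 18.6, 21.1 and 26.6 CPM in NCA, 19.4, 23.1 and 15.8 in ASO2, and 29.1, 26.7 and 26.2 in ASO10.

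At FKBP2 the ASO10 libraries lay above all ASO2 libraries and overlapped 1 NCA library. ASO2 was lower than ASO10 there (log2 fold change -0.50 ± 0.14 (SE), adjusted p = 0.0203, edgeR), while neither differed from NCA by the test (-0.19 and 0.31, adjusted p = 0.544 and 0.391). The call was lost with DESeq2 (adjusted p = 0.0922) and without ASO2 replicate 1 (0.0847) or 3 (0.249), or ASO10 replicate 1 (0.146), 2 (0.0665) or 3 (0.0568). The most accessible region around BAD, chr11:64268724-64271741, which overlaps PLCB3 and the 3′ side of BAD, had 32.3, 27.6 and 31.1 CPM in NCA, 27.1, 29.7 and 31.4 in ASO2, and 40.1, 36.6 and 39.5 in ASO10. ASO10 lay above all other libraries; the differences did not pass the test (0.35 ± 0.13 against NCA, adjusted p = 0.182; -0.39 ± 0.13 for ASO2 against ASO10, adjusted p = 0.0532). The latter was called with at least 10 counts in every library (adjusted p = 0.0195) and with only the groups compared (0.0237).

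Counts were also summed per gene over all regions of its window, the gene and 50 kb on either side, and tested with edgeR over 19360 protein-coding genes; neighbouring genes share regions. Under ASO2 none of the 10 windows was called (1 at an unadjusted p under 0.05, and BCL2 with DESeq2, total counts or loess offsets), where 8.62% of all windows were. Under ASO10 1 was higher and none lower, with 11.6% of all windows called. ASO2 was lower than ASO10 in 2, with 12.6% of all windows called, and the mean of both oligonucleotides was higher than NCA in 1 and lower in 1, with 10.1% called.

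The MCL1 window had 187, 171 and 178 CPM in NCA, 175, 192 and 184 in ASO2, and 201, 207 and 217 in ASO10. Group means were 179 CPM in NCA and 209 in ASO10. The ENSA region at the edge of this window alone had means of 60.5 and 85.9, so much of the rise lay at this neighbouring gene. In the window sum, ASO10 lay above all other libraries. The log2 fold change was 0.22 ± 0.05 (SE) for ASO10 (adjusted p = 0.00121, edgeR), 0.04 ± 0.05 for ASO2 (adjusted p = 0.666), -0.18 ± 0.05 for ASO2 against ASO10 (adjusted p = 0.00743) and 0.13 ± 0.04 for both against NCA (adjusted p = 0.0334). The ASO10 call of the full window held without each library in turn. With only the regions nearest to MCL1 itself, the ASO10 difference was 0.33 (adjusted p = 0.0272), and this fit was not repeated without single libraries. The direct difference was lost without ASO2 replicate 1 (adjusted p = 0.0709) or ASO10 replicate 3 (0.077) and with those regions only (-0.22, 0.178). The call for both was lost without NCA replicate 2 (0.202) or 3 (0.0946), ASO2 replicate 2 (0.0843) or ASO10 replicate 3 (0.0906), and with total counts (0.0857), loess offsets (0.212) or those regions only (0.108). Within the span or within 10 kb the last pair of calls was also lost (adjusted p = 0.246 and 0.239 for the direct difference, 0.109 and 0.117 for both). The ASO10 call held within the span (0.35, adjusted p = 0.0353, edgeR) and within 10 kb (0.31, adjusted p = 0.031). The span held only the region at MCL1, which was not called among all regions (adjusted p = 0.092, edgeR).

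The BCL2 window had 115, 118 and 122 CPM in NCA, 105, 107 and 104 in ASO2, and 104, 108 and 110 in ASO10. Libraries of both oligonucleotides lay below all NCA libraries, by similar amounts. Against NCA the log2 fold change was -0.17 ± 0.06 (SE) for ASO2 and -0.14 ± 0.06 for ASO10 (adjusted p = 0.0678 and 0.111, edgeR), and only their mean was called (-0.16 ± 0.05, adjusted p = 0.0413). With loess offsets both were called (adjusted p = 0.0398 and 0.0414), and ASO2 also with DESeq2 (0.0477) or total counts (0.0219). The call for the mean was lost with a replicate block (adjusted p = 0.0501), within the span (0.166) or 10 kb (0.266), with the regions nearest to BCL2 only (0.152), and without NCA replicate 1 (0.06), 2 (0.093) or 3 (0.191), ASO2 replicate 1 (0.0593) or 3 (0.0584), or ASO10 replicate 1 (0.0949) or 2 (0.0563).

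The BAD window had 139, 138 and 148 CPM in NCA, 138, 140 and 130 in ASO2, and 162, 159 and 148 in ASO10. ASO10 lay above all ASO2 libraries. ASO2 was lower than ASO10 (log2 fold change -0.20 ± 0.05 (SE), adjusted p = 0.0061, edgeR), and neither differed from NCA by the test (adjusted p = 0.588 and 0.068). The call was lost without ASO2 replicate 3 (0.0601) or ASO10 replicate 1 (0.0526) and within the span (0.0523), within 10 kb (0.07) or with only the regions nearest to BAD (-0.17, 0.58). The windows of BCL2L1, BCL2L11, PMAIP1, BID, BAK1, BIK and HRK were not called in any comparison. Of these, BCL2L11 had the largest difference, with 28.0, 27.5 and 30.0 CPM in NCA, 32.4, 34.1 and 29.2 in ASO2, and 36.1, 36.0 and 31.2 in ASO10, a log2 fold change of 0.27 ± 0.12 for ASO10 (adjusted p = 0.118).

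**Figure D4:**
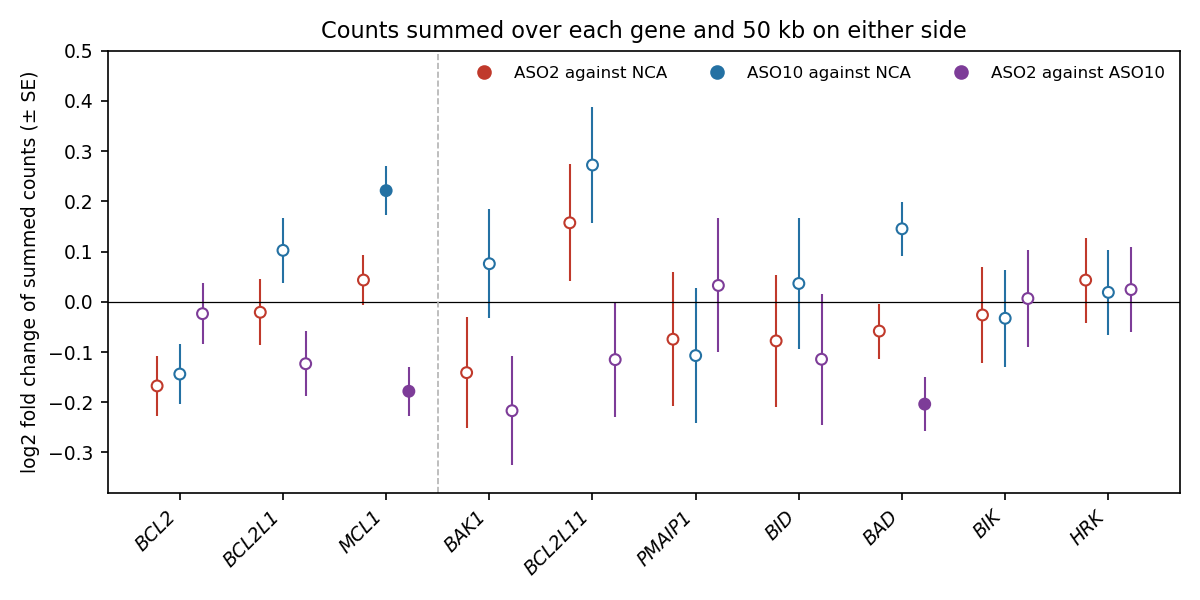
Log2 fold change of the counts summed over each gene's window (points, with SE as error bars) for ASO2 against NCA, ASO10 against NCA and ASO2 against ASO10; filled points have an adjusted p under 0.05 and the dashed line separates anti-apoptotic from pro-apoptotic genes. The filled points are MCL1 under ASO10 (0.22) and, for ASO2 against ASO10, MCL1 (-0.18) and BAD (-0.20). Both windows include called regions at neighbouring genes (ENSA for MCL1, FKBP2 for BAD).

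Anti-apoptotic and pro-apoptotic genes were compared by the mean log2 CPM of the 3 anti-apoptotic start regions minus that of the 7 pro-apoptotic ones, as a description without a test. This difference was 1.54, 1.32 and 1.36 in the NCA libraries (1.41 ± 0.12, SD, n = 3), 1.58, 1.42 and 1.46 in ASO2 (1.49 ± 0.08) and 1.67, 1.56 and 1.71 in ASO10 (1.65 ± 0.08). Every ASO10 library lay above every NCA library, with a shift of 0.24 between the group means, and the ASO2 shift of 0.08 was smaller than the spread in NCA. With loess offsets, which remove each library's trend with abundance, the shifts were 0.16 for ASO10 and 0.12 for ASO2. The start regions of BCL2, BCL2L1 and MCL1 were all higher under ASO10 than NCA (median log2 fold change 0.24), as were 5 of the 7 pro-apoptotic ones (median 0.11). From NCA to ASO10 the anti-apoptotic mean went from 4.78 to 5.04 and the pro-apoptotic mean from 3.37 to 3.39. BIK, a region with low counts, stood lowest at -0.70 (adjusted p = 0.486, edgeR). It lowered the pro-apoptotic mean and so enlarged the ASO10 shift, and the shift without BIK was not analysed here. The other pro-apoptotic start regions ran from -0.02 (PMAIP1) to 0.31 (BCL2L11) under ASO10. The anti-apoptotic ones ran from 0.15 (BCL2) to 0.39 (MCL1), so the 2 ranges overlapped. With the window sums the values overlapped in all groups: 1.56 ± 0.06 in NCA, 1.54 ± 0.06 in ASO2 and 1.56 ± 0.04 in ASO10. Over all tested regions, the median log2 fold changes under ASO2 and ASO10 were -0.08 and -0.04 for the 31 anti-apoptotic regions and -0.09 and 0.07 for the 49 pro-apoptotic ones.

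**Figure D5:**
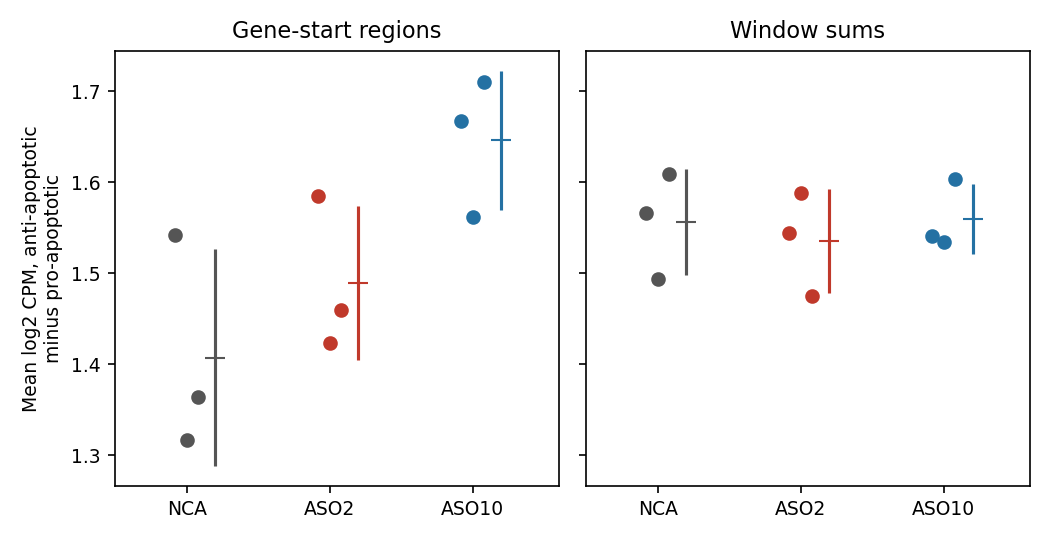
Mean log2 CPM of the 3 anti-apoptotic genes minus that of the 7 pro-apoptotic genes in each library (points), with mean and SD of 3 libraries beside them, for gene-start regions (left) and window sums (right). On the left the ASO10 libraries run from 1.56 to 1.71 and the NCA libraries from 1.32 to 1.54; on the right the groups overlap.

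The rest of the pathway was followed through 24 further genes: other family members, caspases with their activators and the inhibitors of apoptosis. Under ASO2 1 of their 24 windows was higher and none lower than in NCA (2 at an unadjusted p under 0.05), and under ASO10 4 were higher and 2 lower. Between the oligonucleotides ASO2 was higher in 2 and lower in 3, and the mean of both was higher than NCA in 2 and lower in 1. These are 4.17%, 25.0%, 20.8% and 12.5% of the list, beside the shares of all windows given above.

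The window of BAX, the effector alongside BAK1, was higher under ASO10, while its ASO2 call lay near the threshold. It had 91.6, 80.2 and 79.8 CPM in NCA, 103, 98.7 and 89.9 in ASO2, and 95.6, 111 and 108 in ASO10. ASO10 lay above all NCA libraries and ASO2 overlapped them in 1. The log2 fold change was 0.32 ± 0.07 (SE) for ASO10 (adjusted p = 0.00102, edgeR) and 0.21 ± 0.07 for ASO2 (adjusted p = 0.0451). With only the regions nearest to BAX it was 0.19 for ASO10 and 0.11 for ASO2 (adjusted p = 0.59 and 0.792), and within the span 0.19 and 0.11 (0.627 and 0.803). The ASO2 call was also lost with DESeq2 (adjusted p = 0.0561), limma-voom (0.0688), total counts (0.118), loess offsets (0.0582), a replicate block (0.0561) and only the groups compared (0.053), and without NCA replicate 2 (0.153) or 3 (0.171), ASO2 replicate 1 (0.209) or 2 (0.129), or ASO10 replicate 2 (0.0525).

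The window of BBC3, which encodes the p53-induced BH3-only protein PUMA, was higher under ASO10 (0.18 ± 0.05 (SE), adjusted p = 0.0153, edgeR) and differed between the oligonucleotides (-0.21, adjusted p = 0.00283). Its ASO10 call was lost without NCA replicate 1 (0.0534) or 3 (0.0626) or ASO10 replicate 3 (0.192), with loess offsets (0.11, 0.139), within the span (0.327) and within 10 kb (0.196). The direct call was lost without ASO10 replicate 3 (0.0769) and within 10 kb (0.0678). BCL2L2, which encodes the anti-apoptotic BCL-W, was higher under ASO10 (0.16, adjusted p = 0.023) and BCL2L12 likewise (0.25, adjusted p = 0.000173), but with the nearest regions only both values turned negative (-0.11 and -0.10). The BCL2L12 call was also lost within 10 kb (0.16, adjusted p = 0.152). The window of BCL2L14 differed between the oligonucleotides (0.32, adjusted p = 0.012), with 53.1, 47.6 and 48.0 CPM in NCA, 46.8, 55.2 and 56.0 in ASO2, and 44.2, 41.1 and 41.5 in ASO10, where ASO10 lay below all other libraries. The BCL2L2 call for ASO10 was lost without NCA replicate 1 (0.084) or 2 (0.123) or ASO10 replicate 1 (0.156) or 3 (0.134), and with loess offsets (0.10, 0.189).

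The neighbouring genes BIRC2 and BIRC3, which encode ubiquitin ligases that restrain caspases and signal to NF-kB, share 9 regions and were lower under ASO10. BIRC2 had 128, 131 and 126 CPM in NCA, 120, 123 and 116 in ASO2, and 110, 101 and 111 in ASO10. Both oligonucleotides lay below all NCA libraries at BIRC2. The log2 fold change was -0.26 ± 0.06 (SE) for ASO10 (adjusted p = 0.00198, edgeR) and -0.10 ± 0.06 for ASO2 (adjusted p = 0.319). At BIRC3 it was -0.22 for ASO10 (adjusted p = 0.00898), lost without ASO10 replicate 2 (0.0679), and 0.27 for ASO2 against ASO10 (adjusted p = 0.00104). With only the regions nearest to each gene both ASO10 calls were lost (-0.13, adjusted p = 0.463 for BIRC2; -0.27, 0.0756 for BIRC3). Within 10 kb the values were -0.18 for BIRC2 (adjusted p = 0.182) and -0.03 for BIRC3 (0.89), and within the span of BIRC2 0.04 (0.884).

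The start region of MCL1 had the smallest p among the 10 for a start region, and its accessibility over the 9 libraries was compared with that of the 10446 gene-start regions. The highest Pearson correlations of log2 CPM were with the region shared by AGPAT1 and RNF5 (0.969), with PIAS4 (0.968) and with MOSPD3 (0.960). These are given as a description, since the points are the same 9 libraries and share their depth.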

How the data were processed

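ATAC-seq of 9 SK-N-BE(2)c libraries was used as deposited. The authors deposited whole-number counts per region on a single set of regions, without normalization, as the values show. The submitters' processing notes name FastQC, Bowtie2 2.2.6, SAMtools, MACS2 2.1.2, DESeq2 1.42.0 and the build hg38 (GRCh38), with no role for each. Filters, the Tn5 shift, how peaks were pooled and whether reads, pairs or cut sites were counted are not given in the sources used here; if peaks came from some groups only, regions open in the others would be missed. The labels list RNA as the molecule, while their protocol describes genomic DNA, which was followed. Coordinates are as the region names give them, and whether they count from 0 or 1 is not stated.

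Regions were filtered with filterByExpr by group, scaled by TMM and tested with edgeR 4.0.16 (robust quasi-likelihood fit, R 4.3.3, all 9 libraries, a term for group), with Benjamini-Hochberg adjustment over 119417 regions or 19360 windows. Printed CPM use TMM library sizes, and log2 CPM a prior count of 2. No library repeated another of its group: chi-square over degrees of freedom was 2.68 to 3.35 for such pairs. The fits were tested on simulated data. Gene spans and promoters came from RefSeq tables of GRCh38.p14; which regions are exonic was not analysed here.

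The members and gene lists were chosen with earlier results of these data known. The text names the 10 genes with their gene-start region, most accessible region and called regions, the other apoptosis genes with a called window, and the 3 genes most like the start region with the smallest p. Alternatives were DESeq2 1.42.0, limma-voom (limma 3.58.1), other scalings, filters and windows, a replicate block and leaving out each library; windows of only the regions nearest to the gene were added after seeing the data.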

Additional observations from a re-analysis of the deposited data

Results flagged for a closer look

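Differences between the oligonucleotides themselves, from the direct test of ASO2 against ASO10 in edgeR, were found at 9 places, given here as log2 fold changes. Around the 10 genes they were the region at ENSA in the MCL1 window (-0.385), the region at FKBP2 in the BAD window (-0.499), and the summed windows of MCL1 (-0.178) and BAD (-0.204). Among the other apoptosis genes they were the windows of BCL2L2 (-0.178), BCL2L12 (-0.142), BBC3 (-0.207), BCL2L14 (0.323) and BIRC3 (0.266).

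In 7 of the 9 ASO2 was the lower, but the 9 are not separate. The ENSA region is part of the MCL1 window and the FKBP2 region is part of the BAD window. Over the genome ASO2 was lower than ASO10 at 7884 of 10446 gene-start regions and in 9956 of 19360 windows. Among all called differences it was lower in 1025 of 2449 windows and 815 of 3853 regions. The BCL2L12 difference (adjusted p = 0.0321, edgeR) was lost without ASO2 replicate 1 (0.117), 2 (0.0526) or 3 (0.0597) or ASO10 replicate 1 (0.0924) or 3 (0.189), with loess offsets (-0.12, 0.0844) and within 10 kb (-0.06, 0.703). The BCL2L14 difference (adjusted p = 0.012, edgeR) was lost without ASO2 replicate 2 (0.0584) or 3 (0.0849) or ASO10 replicate 2 (0.056) or 3 (0.0503), within the span (0.151) or 10 kb (0.0804), and with the nearest regions only (0.0699). The BCL2L2 difference (adjusted p = 0.01, edgeR) was lost without ASO2 replicate 3 (0.171) or ASO10 replicate 1 (0.0929) or 3 (0.0809). The BIRC3 difference (adjusted p = 0.00104, edgeR) held without each library in turn and reversed within 10 kb (-0.101).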

How the results depend on the processing

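Recomputing 155 results gave 3125 pairs of a result and a setting. Of the single-gene and single-region results 26 were called at the outset and 114 were not; a difference called under neither setting counts as unchanged whatever its sign. The single results were unchanged in 2654 cases, lost their call in 144, gained one in 15 and reversed in 12. The unchanged cases include those of the 114 uncalled results, while only the 26 called ones could lose a call. The results over sets of regions or genes stayed the same in 200 cases and moved in 100. The cause was not tested unless fewer regions or libraries entered. No pairing of libraries by replicate number was seen in the counts. Deviations of libraries with the same number correlated at -0.036 to 0.013 and those with other numbers at -0.021 to 0.031. Of the libraries, 0 of 9 correlated best with their own number. These values cannot exclude a weak pairing, since counts were low, with a median of 2.63 CPM over the tested regions.

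Called member regions under ASO2 (2) came to 0 with DESeq2 and with an absolute log2 fold change over 1. They also came to 0 within 1 kb of an end, in this paragraph an end of the member gene itself. Within the span and within 10 kb they came to 1. Under ASO10 (1) they came to 2 with at least 10 counts and to 0 with a fold change over 1, the span, 10 kb and 1 kb of an end. For ASO2 against ASO10 (2) they came to 1 with DESeq2 and loess offsets, to 3 with at least 10 counts and with only the groups compared, and to 0 with a fold change over 1, the span, 10 kb and 1 kb of an end. For both against NCA (1) they came to 2 with loess offsets, to 4 with at least 10 counts, and to 0 with DESeq2, no filter, the replicate block, a fold change over 1, the span, 10 kb and 1 kb of an end. Leaving out each library gave 0 to 2, 0 to 1, 0 to 3 and 0 to 2.

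Called member windows under ASO2 (0) came to 1 with DESeq2, total counts and loess offsets, and under ASO10 (1) to 2 with loess offsets and 0 with a fold change over 1. For ASO2 against ASO10 (2) they came to 0 with the span, 10 kb, the nearest regions only and a fold change over 1. For both (2) they came to 1 with total counts, loess offsets and the replicate block and to 0 with those 4 settings. Leaving out each library gave 0 to 0, 1 to 1, 1 to 2 and 0 to 1.

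Called windows of the other apoptosis genes under ASO2 (1) came to 0 with DESeq2, limma-voom, total counts, loess offsets, the replicate block, only the groups compared and a fold change over 1, and to 2 within 10 kb. Under ASO10 (6) they came to 0 with the span and a fold change over 1, 4 with loess offsets, 2 within 10 kb and 1 with the nearest regions. For ASO2 against ASO10 (5) they came to 2 with the span, 0 with a fold change over 1, 1 within 10 kb and 3 with the nearest regions, and for both (3) to 0 with the span and a fold change over 1 and 1 with the nearest regions. Leaving out each library gave 0 to 1, 4 to 6, 1 to 5 and 2 to 3.

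The anti-apoptotic minus pro-apoptotic shifts were -0.021 for ASO2, 0.0034 for ASO10 and -0.024 between them with window sums, and at the gene-start regions 0.125, 0.159 and -0.034 with loess offsets; without each library the gene-start shifts ran from 0.035 to 0.149, 0.193 to 0.306 and -0.204 to -0.124. Reversed values with the span and the nearest regions were -0.099 and -0.097 for BCL2L12 under ASO10, 0.151 and 0.148 between the oligonucleotides and -0.023 and -0.023 for both, and -0.113 and -0.111 for BCL2L2 under ASO10 and 0.071 and 0.068 between the oligonucleotides. BIRC2 under ASO10 became 0.043 within the span, and BIRC3 between the oligonucleotides -0.101 within 10 kb. Member regions at the low end of depth, such as the region at BIK with 1.64 to 4.29 CPM, limit what could be detected there.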
